A study of Mus musculus with 4 samples.

Results

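Aggrecan, cartilage link protein, the 4 matrilins, cartilage oligomeric matrix protein (COMP) and the small cartilage proteins Snorc and Ucma were followed in RNA-seq of primary mouse chondrocytes, the cells that make cartilage. The 9 genes (Acan, Hapln1, Comp, Matn1, Matn2, Matn3, Matn4, Snorc and Ucma) were taken by symbol from a table of 25239 genes, and all 9 passed the low-count filter that left 15522 genes for testing. There were 2 conditional knockout (cKO) libraries, of genotype Tiki2 fl/fl with the Cre named Col2a1-Cre/ERT in the titles and Col2a-CreERT2 in the genotype field, and 2 control libraries, of genotype Tiki2 fl/fl without Cre. Both groups carried the floxed Tiki2 alleles and both received 4-hydroxytamoxifen, which activates this Cre. The Cre is driven by Col2a1, the gene of type II collagen, so deletion is expected only in cells that use that promoter. Only cKO libraries carried Cre, and its own effect and that of losing Tiki2 cannot be told apart. The labels give no age, and nothing in them says that replicates came from separate mice. The controls differed in sex (values below), so they did not come from 1 animal, while the spread between the cKO libraries may be technical. The p-values reflect the spread among these 4 libraries alone.

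Aggrecan is a large proteoglycan whose chondroitin sulfate chains hold water in cartilage. It binds hyaluronan, and link protein locks this bond, so that many aggrecan molecules form 1 aggregate. COMP and the matrilins are adaptor proteins that connect collagen fibrils, aggrecan and each other. Snorc is a membrane proteoglycan of chondrocytes, and Ucma is a secreted protein rich in vitamin K-dependent Gla residues. Sox9, with Sox5 and Sox6, drives many of these genes in chondrocytes.

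The stretches just before the transcription starts of Acan, Hapln1 and Matn1, which were lower in cKO, and of Matn4, which did not pass the test, are printed so that the genes can be set beside their promoters. RefSeq (GRCm38.p6, the build also called mm10) held windows for 6 of the 9 genes, and each line gives 250 bases ending 1 base before the start, on the gene's strand. The lines cover chr7:79052976-79053225 (plus strand) for Acan, chr13:89540386-89540635 (plus) for Hapln1, chr4:130944135-130944384 (plus) for Matn1 and chr2:164405161-164405410 (minus) for 1 of the 2 Matn4 starts. Capitals mark the CCAAT box (CCAAT, or ATTGG on the other strand) and the GC box (GGGCGG, or CCGCCC on the other strand).
Acan: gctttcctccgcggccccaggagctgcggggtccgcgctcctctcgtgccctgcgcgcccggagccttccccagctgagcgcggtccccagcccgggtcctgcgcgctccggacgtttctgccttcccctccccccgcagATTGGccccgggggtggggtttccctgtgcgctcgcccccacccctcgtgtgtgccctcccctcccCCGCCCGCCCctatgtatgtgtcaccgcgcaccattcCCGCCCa
Hapln1: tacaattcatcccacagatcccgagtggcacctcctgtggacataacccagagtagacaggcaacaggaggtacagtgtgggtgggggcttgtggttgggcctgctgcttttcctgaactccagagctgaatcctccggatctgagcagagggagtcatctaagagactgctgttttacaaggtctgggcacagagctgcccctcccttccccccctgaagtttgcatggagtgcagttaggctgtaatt
Matn1: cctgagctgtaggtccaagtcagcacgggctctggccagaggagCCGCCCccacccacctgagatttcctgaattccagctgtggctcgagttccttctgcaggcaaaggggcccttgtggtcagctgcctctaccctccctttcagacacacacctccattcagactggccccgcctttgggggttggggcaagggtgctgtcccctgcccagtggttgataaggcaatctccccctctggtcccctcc
Matn4: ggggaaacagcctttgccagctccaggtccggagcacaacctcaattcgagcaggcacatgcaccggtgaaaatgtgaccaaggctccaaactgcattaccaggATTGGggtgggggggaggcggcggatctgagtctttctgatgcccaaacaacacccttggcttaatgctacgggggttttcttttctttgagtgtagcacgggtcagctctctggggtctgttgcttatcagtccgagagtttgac

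The CCAAT box was present in windows of Acan, Ucma, Matn3 and Matn4, and in 33.8% of all 32851 RefSeq windows of this length. The GC box was present in windows of Acan, Matn1, Matn3 and the second Matn4 start, and in 32.7% of all windows. Of the 3 GC box matches in Acan, 2 overlap each other. None of the 7 windows of these genes held ACAAAG or ACAATG, letters of Sox sites that 25.2% of all windows held, or CTTTGAT, letters of TCF/LEF sites that 3.21% held, or TATAAA, which 12.4% held. Both strands were searched, and ACAAAG on its other strand shares CTTTG with the TCF/LEF letters. The RefSeq starts of Acan and Hapln1 are not those of the GENCODE gene models whose positions are given for these genes. These matches describe letters only, and enhancers outside the windows were not searched.

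Total counts lay between 66750140 and 78873054 per library, and libraries of a group differed by far more than sampling noise. The targeted gene, Tiki2 (symbol Trabd2b), had 292 and 363 CPM (counts per 1000000 counts) in cKO and 436 and 415 CPM in control. Its log2 fold change, -0.38 ± 0.11 (SE), did not pass the threshold (adjusted p = 0.15 in the edgeR quasi-likelihood test). DESeq2 called Trabd2b lower (adjusted p = 0.00585), as did edgeR without cKO replicate 2 (log2 fold change -0.54, adjusted p = 0.027), and limma-voom did not (adjusted p = 0.108). Control replicate 1 had 112185 counts of Xist and 0 of the Y-linked Ddx3y, while the other 3 libraries had 36 to 171 and 11073 to 12085, so control replicate 1 differs in sex from the rest. All 8 chondrocyte markers that are not among the 9 genes were detected in every library, with Col2a1 at 7792 and 5381 CPM in cKO and 14352 and 17759.9 CPM in control. In whole cultures, fewer chondrocytes and less RNA per chondrocyte cannot be told apart.

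Of the 9 genes, 5 were lower in cKO and none was higher, at an edgeR p under 0.05 after Benjamini-Hochberg adjustment over all genes tested. Over all tested genes, 0.908% were called lower and 0.393% higher. Higher calls made up 30.2% of all calls, and 48.5% when scaled by library size without TMM factors. The 5 were Acan, Hapln1, Comp, Matn1 and Snorc, with adjusted p-values between 0.0264 and 0.0373. Matn3 and Ucma, with log2 fold changes of -1.64 and -0.88, did not pass, nor did Matn4 and Matn2. The median log2 fold change of the 9 was -0.95, against 0.00 over all 15522 genes. In 8 of the 9, all but Matn2, both cKO libraries lay below both controls, which held for 24.9% of all tested genes. The same 8 had an unadjusted p under 0.05, as had 8.88% of all tested genes in that direction. Together the 9 genes took 0.393% and 0.311% of all counts in cKO and 0.655% and 0.716% in control.

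Markers of other cells moved in the same libraries. The 8 adipocyte markers summed to 317 and 520.2 CPM (scaled by library size) in cKO and 208 and 210.1 CPM in control, and all 8 had log2 fold changes above 0. The edgeR test called none, although 6 were higher at a p under 0.05 before adjustment, as were 8.36% of all genes. DESeq2 called 5 higher and limma-voom none. Without cKO replicate 1 edgeR called 6 higher, and without cKO replicate 2, 1. The 8 fibroblast markers summed to 11876 and 12592 CPM in cKO and 9919 and 9799 CPM in control. By edgeR 2 rose, the fibrillar collagen genes Col1a1 and Col3a1. Of the 8, 7 had log2 fold changes above 0. Dcn went the other way, at -0.24, and did not pass (edgeR adjusted p = 0.083). DESeq2 called 5 fibroblast markers higher and 1 lower, and limma-voom 2 higher. Of the 8 chondrocyte markers, 6 fell by edgeR, and Cnmd (adjusted p = 0.0676) and Sox9 (adjusted p = 0.15) did not pass. DESeq2 called all 8 lower and limma-voom 7, and edgeR without cKO replicate 1 called all 8. Without control replicate 1 and without control replicate 2, no fibroblast or chondrocyte marker was called, and without cKO replicate 1, 6 fibroblast markers were called higher and 1 lower. The part of these cells in the changes of the 9 genes was not tested.

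**Figure D1:**
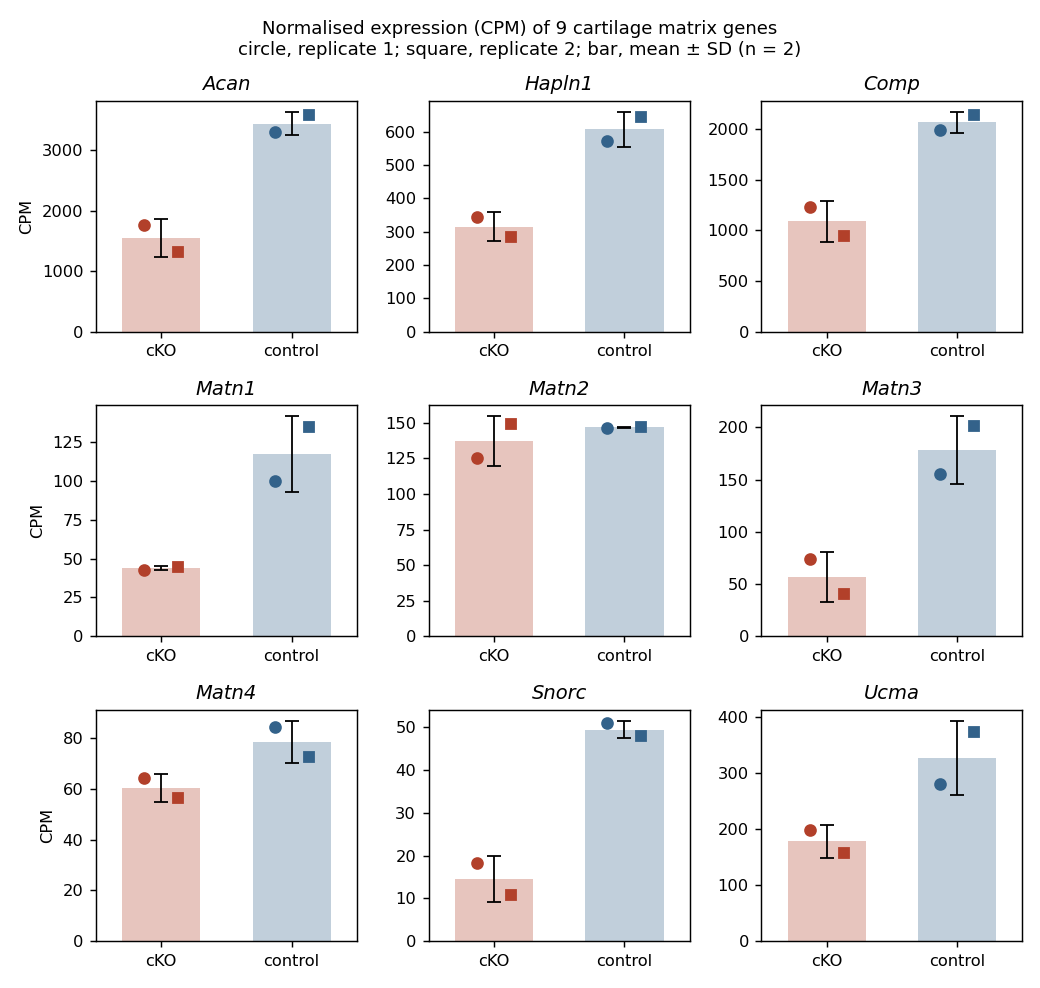
TMM-normalised expression (CPM, axes from 0) of each gene in the 2 cKO and the 2 control libraries; points are libraries, bars and error bars are mean ± SD (n = 2). The groups overlap for Matn2 and are apart for the other 8 genes, with cKO below control.

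Acan (ENSMUSG00000030607.7, chromosome 7, 79053483 to 79115099, plus strand), the gene of the aggrecan core protein, had 1772 and 1327 CPM in cKO, against 3307 and 3581 CPM in control. Both cKO libraries were far below both controls, with cKO replicate 2 the lowest. Expression averaged 1549.7 ± 315 CPM in cKO and 3444 ± 194 CPM in control (SD, n = 2 each). The log2 fold change of Acan was -1.15 ± 0.13 (SE), with a 95% interval from -1.47 to -0.83 (adjusted p = 0.0289, edgeR).

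Hapln1 (ENSMUSG00000021613.9, chromosome 13, 89539796 to 89611652, plus strand), which encodes the link protein, had 345 and 285 CPM in cKO and 571 and 645 CPM in control. The groups were well apart, and again cKO replicate 2 was the lowest library and control replicate 2 the highest. The log2 fold change was -0.95 ± 0.11 (95% interval -1.21 to -0.68; edgeR adjusted p = 0.0289), so that Hapln1 was 1.93-fold lower and Acan 2.22-fold lower.

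Comp (ENSMUSG00000031849.9, chromosome 8, 70373558 to 70382066, plus strand), a pentameric thrombospondin that binds collagens and matrilins, had 1234 and 943 CPM in cKO and 1991 and 2139.9 CPM in control. Its libraries stood in the same order as those of Acan and Hapln1. It was 1.90-fold lower, with a log2 fold change of -0.92 ± 0.12 (95% interval -1.23 to -0.62; edgeR adjusted p = 0.0373).

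The 4 matrilin genes had log2 fold changes between -1.64 and -0.10. Matn1 (ENSMUSG00000040533.7, chromosome 4, 130944385 to 130955475, plus strand), the classical cartilage matrix protein, had 42.8 and 44.9 CPM in cKO and 100.1 and 134 CPM in control. The cKO libraries were close together and the controls were spread, the reverse of the pattern in Acan. Matn1 was 2.67-fold lower, with a log2 fold change of -1.42 ± 0.14 (95% interval -1.75 to -1.09; edgeR adjusted p = 0.0264), the lowest adjusted p of the 9.

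Matn3 (ENSMUSG00000020583.4, chromosome 12, 8947929 to 8972028, plus strand), a matrilin of growing cartilage in which human mutations cause multiple epiphyseal dysplasia, had 73.8 and 40.1 CPM in cKO and 155 and 201 CPM in control. Both cKO libraries lay below both controls, but the cKO libraries also stood well apart from each other. Its log2 fold change of -1.64 was the second lowest of the 9, yet with an SE of 0.28 and a 95% interval from -2.32 to -0.96 it missed the threshold (edgeR adjusted p = 0.0572). DESeq2 and limma-voom put it past the threshold, at adjusted p-values of 0.00929 and 0.0306.

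Matn4 (ENSMUSG00000016995.17, chromosome 2, 164389393 to 164405160, minus strand) had 64.4 and 56.5 CPM in cKO and 84.5 and 72.8 CPM in control, groups that are apart but close. Its log2 fold change was -0.38 ± 0.10 (95% interval -0.62 to -0.14; edgeR adjusted p = 0.126). Matn2 (ENSMUSG00000022324.15, chromosome 15, 34306677 to 34436273, plus strand), a matrilin found in many connective tissues besides cartilage, had 125 and 149.5 CPM in cKO and 147 and 147 CPM in control. The cKO libraries lay on both sides of the controls. The log2 fold change was -0.10 ± 0.09 with a 95% interval from -0.31 to 0.12 (edgeR adjusted p = 0.645), an interval that does not reach the fold change of any gene called lower among the 9.

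Snorc (ENSMUSG00000026258.5, chromosome 1, 87470271 to 87475482, plus strand) had the lowest log2 fold change of the 9. It had 18.4 and 10.7 CPM in cKO, against 50.9 and 48.1 CPM in control. Both cKO libraries were far below the controls, which differed little from each other, and Snorc was 3.41-fold lower (log2 fold change -1.77 ± 0.24; 95% interval -2.35 to -1.19; edgeR adjusted p = 0.0373). Of all tested genes, 0.676% had a lower log2 fold change than Snorc. Ucma (ENSMUSG00000026668.10, chromosome 2, 4976122 to 4985748, plus strand) had 199 and 158 CPM in cKO and 280.4 and 374 CPM in control. Here the 2 controls differed by more than the lower control and the higher cKO library did. The log2 fold change was -0.88 ± 0.16 (95% interval -1.27 to -0.48), and the gene did not pass (edgeR adjusted p = 0.0676), while limma-voom gave an adjusted p of 0.0474 and DESeq2 0.0141.

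**Figure D2:**
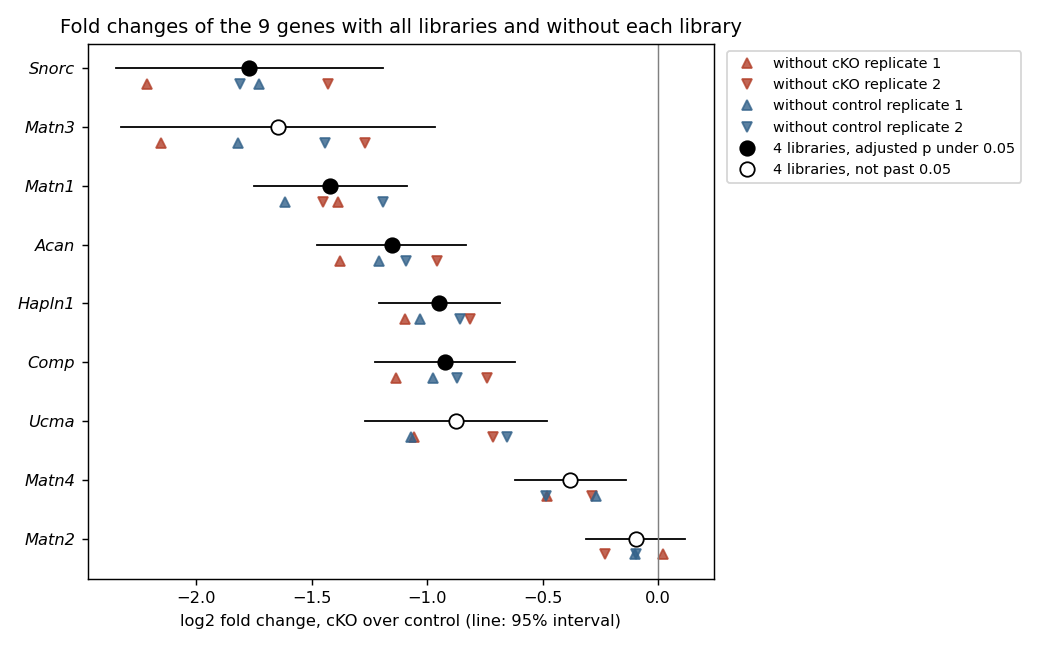
Log2 fold change, cKO over control, of each gene with all 4 libraries (circles, filled where adjusted p was under 0.05, lines 95% intervals) and without each library in turn (triangles). Snorc is lowest at -1.77 and Matn2 highest at -0.10, and without cKO replicate 1 Matn2 is just above 0.

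Which genes passed depended on the libraries kept and on the test. Without control replicate 1, which leaves libraries of 1 sex, and without control replicate 2, only Matn1 of the 9 passed, at adjusted p-values of 0.0257 and 0.0325 (edgeR), and the percentages of all genes called lower were 0.0249% and 0.0812%, with 0.00623% and 0.0375% called higher. In each of these fits the single control is assumed to vary as the cKO libraries do. In the same fits Acan had log2 fold changes of -1.21 and -1.09, Snorc of -1.73 and -1.81, Comp of -0.98 and -0.87 and Hapln1 of -1.03 and -0.86, with adjusted p-values from 0.11 to 0.20. Without cKO replicate 1, 7 of the 9 were called lower (2.94% of all genes lower and 1.95% higher), and without cKO replicate 2, 6 (0.715% lower and 0.282% higher). Matn3 was called in both of these fits and Ucma in the first, with log2 fold changes of Matn3 at -2.15 and -1.27. Matn2 changed sign, at 0.023, without cKO replicate 1. In the fits that leave out a cKO library, the single cKO library is assumed to vary as the controls do. With all 4 libraries, DESeq2 called 8 of the 9 lower, all but Matn2, beside 4.34% of all genes lower and 3.53% higher, and limma-voom called 7, beside 1.46% lower and 0.683% higher. With library sizes alone 5 were called lower, beside 0.792% of genes lower and 0.747% higher. A mean CPM of at least 1 gave 6 (1.56% lower, 0.812% higher) and counts divided by 4 gave 7 (1.76% lower, 0.927% higher). With the replicate number as a block, which the labels do not say pairs libraries, Matn1 alone passed (0.129% lower, 0.0193% higher), and with the numbers crossed 7 did (2.2% lower, 1.44% higher).

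The cKO libraries also differed from each other in a way that varied by gene. The level in cKO replicate 2 over that in cKO replicate 1 was 0.543 for Matn3, 0.582 for Snorc and 0.749 for Acan, and 1.05 for Matn1 and 1.20 for Matn2. Replicate 2 was thus the lower cKO library for 7 of the 9 genes, and the share of all genes lower in it was not counted. It was also the library with the highest adipocyte sum, 520.2 CPM against 317 CPM in cKO replicate 1. Skeletal muscle markers went the other way, with sums of 13.5 CPM in cKO replicate 2 and 66.5 CPM in cKO replicate 1. The targeted gene Trabd2b was higher in cKO replicate 2, at 363 CPM against 292 CPM in cKO replicate 1. What causes the spread between the cKO libraries was not tested. Between the controls, the ratio of replicate 2 to replicate 1 ran from 0.862 for Matn4 to 1.34 for Matn1.

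Levels can be compared between genes only per length, here as CPM per kilobase of merged exons. Comp was highest in both groups, at 367 ± 69.4 CPM per kb in cKO and 696 ± 35.4 in control (SD, n = 2 each). Acan followed with 207 ± 42.2 in cKO and 461 ± 26.0 in control, and Ucma with 202 ± 33.2 in cKO and 370.05 ± 74.7 in control. In cKO, Acan and Ucma did not differ beyond their spread. Hapln1, at 53.4 ± 7.21 in cKO and 103 ± 8.82 in control, stood between these 3 and the rest in every library.

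The order of the low genes differed between groups. In control, Snorc (68.6 ± 2.81), Matn3 (59.0 ± 10.8) and Matn1 (58.6 ± 12.1) lay together above Matn2 (23.5 ± 0.0759) and Matn4 (15.2 ± 1.60). In cKO, Snorc (20.1 ± 7.51), Matn3 (18.9 ± 7.92), Matn1 (21.9 ± 0.726) and Matn2 (21.9 ± 2.76) had overlapping ranges, with Matn4 (11.7 ± 1.08) lowest. Per kb of merged exons, Matn2 was thus level with Snorc, Matn3 and Matn1 in cKO. Scaled by the longest coding transcript in place of merged exons, Comp, Acan, Ucma and Hapln1 kept the first 4 places in both groups, and in cKO Matn2 (38.4) came next, above Snorc (30.4), Matn4 (26.2), Matn1 (21.9) and Matn3 (18.9). Among 15164 genes with a length, Comp ranked 55 and 79 in cKO and 31 and 29 in control.

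**Figure D3:**
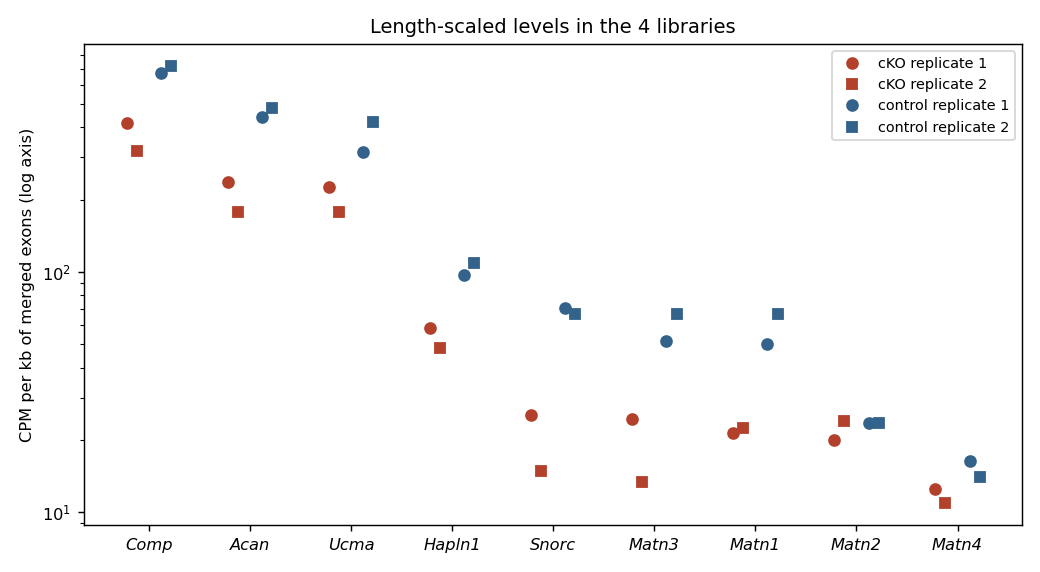
Expression per kilobase of merged exons (CPM per kb, log axis) of the 9 genes, ordered by their control mean; each point is a library. Comp, Acan, Ucma and Hapln1 lead in both groups. Matn2 lies well below Snorc, Matn3 and Matn1 in control, below them by less in cKO replicate 1 and above them in cKO replicate 2.

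Ratios within a library do not depend on scaling between libraries. Counts of Matn2 were 7.06% and 11.3% of the Acan count in cKO, against 4.43% and 4.11% in control. Matn4 counts were 3.63% and 4.26% of Acan in cKO and 2.55% and 2.03% in control. Both matrilins thus gained on Acan in each cKO library, by 1.06 and 0.79 on the log2 scale. The exact two-sided permutation test gave p = 0.333 for each, the smallest that 2 against 2 libraries allow. These gains reflect the fall of Acan (log2 fold change -1.15), as Matn2 and Matn4 themselves had -0.10 and -0.38. With a median of 0.00 over all tested genes, a gene without change gains on Acan too.

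COMP and link protein transcripts stayed closer to aggrecan. Comp counts were 69.6% and 71.1% of Acan in cKO and 60.2% and 59.8% in control, a log2 difference of 0.23, and Hapln1 counts were 19.5% and 21.5% in cKO and 17.3% and 18.0% in control, a difference of 0.22. Ucma moved by 0.30. Snorc counts were 1.04% and 0.806% of Acan in cKO and 1.54% and 1.34% in control, a difference of -0.65, and Matn3 moved by -0.53. For these 5 genes the groups did not overlap, again at the smallest possible p of 0.333 (exact permutation test). Matn1 was the exception, at 2.42% and 3.38% in cKO and 3.03% and 3.75% in control, groups that overlap (log2 difference -0.24, exact permutation p = 0.667). The share of all genes whose groups are apart in this ratio was not counted. A gain on Acan is not particular to Hapln1, Comp and Ucma, because Acan itself was lower in cKO. Snorc and Matn3 instead fell further than Acan, and 2.03% of all tested genes had a lower log2 fold change than Acan.

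**Figure D4:**
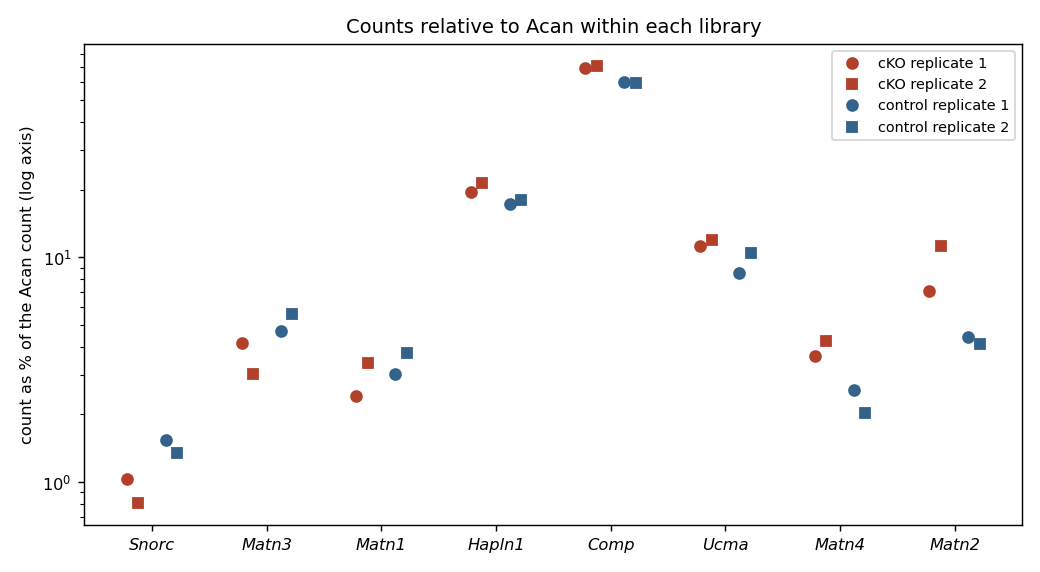
Count of each gene as a percentage of the Acan count in the same library (log axis), ordered by the log2 difference, cKO minus control; each point is a library. Matn2 and Matn4 stand higher in both cKO libraries than in the controls, Snorc and Matn3 lower. The Acan count that each is set against was itself lower in cKO.

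Genes that build the sulfated chains of aggrecan were followed as the other part of the pathway. Of 12 tested genes of glycosaminoglycan sulfation, 2 fell, Papss2 and Chst11, and none rose, beside 0.908% of all genes called lower and 0.393% higher. The list median was -0.16, with 7 of the 12 below 0 and 5 above. At an edgeR p under 0.05 before adjustment, 1 was higher and 5 lower, beside 8.36% and 8.88% of all genes. Papss2, which makes the active sulfate donor, had 185 and 135 CPM in cKO and 323 and 345 CPM in control, with a log2 fold change of -1.06 ± 0.14 (adjusted p = 0.0373, edgeR). Chst11, a chondroitin sulfotransferase, had 264 and 261 CPM in cKO and 333 and 347 CPM in control (log2 fold change -0.37 ± 0.06, adjusted p = 0.0459). The sulfate transporter gene Slc26a2 and the other sulfate donor synthase gene Papss1 had log2 fold changes of -0.56 and -0.38 and did not pass (adjusted p = 0.0835 and 0.0867). DESeq2 called 4 of the 12 lower and limma-voom 2, and edgeR with library sizes alone called 1.

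Of 13 genes of chondroitin sulfate chain synthesis, 1 fell, Chsy3, a chondroitin synthase, at 35.9 and 30.0 CPM in cKO and 52.8 and 55.0 CPM in control (log2 fold change -0.71 ± 0.10, edgeR adjusted p = 0.0409). DESeq2 called 3 of the 13 lower and limma-voom 1. The list median was -0.17, against 0.00 over all tested genes, and 12 of the 13 were below 0. Xylt1, which attaches the first sugar to the core protein, had 236 and 182 CPM in cKO and 295 and 321 CPM in control and did not pass (adjusted p = 0.0964). Of 5 tested keratan sulfate genes edgeR called none, with 1 higher at a p under 0.05 before adjustment, as were 8.36% of all genes. DESeq2 called 1 of them higher and limma-voom none. Without control replicate 1 and without control replicate 2, no gene of these 3 lists was called. Without cKO replicate 1, 4 sulfation and 2 chain synthesis genes were called lower and 1 sulfation and 1 keratan sulfate gene higher, and without cKO replicate 2, 1 sulfation and 1 chain synthesis gene lower.

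All 6 collagen genes of the fibrils that aggrecan surrounds fell, Col2a1, Col9a1, Col9a2, Col9a3, Col11a1 and Col11a2, with a median log2 fold change of -1.30. Of the 6, 5 are also among the chondrocyte markers above. None was called without control replicate 1 or without control replicate 2. Of 9 tested regulators of cartilage matrix genes, edgeR called 1 lower, Wwp2, a ubiquitin ligase and not itself a transcription factor, at 209 and 160.2 CPM in cKO and 388 and 385 CPM in control (log2 fold change -1.07 ± 0.12, edgeR adjusted p = 0.0289). Sox9 had 197 and 157 CPM in cKO and 228 and 232 CPM in control and did not pass by edgeR (adjusted p = 0.15), nor did Sox6 (log2 fold change -0.41, adjusted p = 0.0676) or Sox5 (-0.16, adjusted p = 0.263). DESeq2 called 4 of the 9 regulators lower, Sox9 among them, and limma-voom 1. With either control library left out Wwp2 was not called, and without cKO replicate 1, 3 of the 9 regulators were called lower.

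Relatives of aggrecan and COMP gave 1 call by edgeR, and it was a rise. Thbs2, a matricellular thrombospondin, rose, with 292 and 262 CPM in cKO and 164 and 170.4 CPM in control (log2 fold change 0.73 ± 0.07, edgeR adjusted p = 0.0264), and the other 3 thrombospondins did not pass. Vcan, which encodes versican, the hyaluronan-binding proteoglycan of loose connective tissue, had 1196 and 1824 CPM in cKO and 1061 and 981 CPM in control. Both cKO libraries lay above the controls but far from each other, and Vcan did not pass (log2 fold change 0.56, edgeR adjusted p = 0.193), nor did the other 4 tested relatives. Hapln4, a relative of link protein, had 10.6 and 8.97 CPM in cKO and 15.0 and 14.3 CPM in control (log2 fold change -0.58, edgeR adjusted p = 0.0964). Of these 5, 3 had log2 fold changes below 0 and 2 above. Before adjustment, 1 was higher and 2 lower at an edgeR p under 0.05, beside 8.36% and 8.88% of all genes. DESeq2 called 1 of the 5 lower and limma-voom none. With either control library left out Thbs2 was not called, and without cKO replicate 1, 1 relative of aggrecan was called higher and 1 thrombospondin lower. In both cKO libraries the summed adipocyte and fibroblast markers were above the controls too, and their part in these values was not tested.

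Proteases that cleave aggrecan or COMP gave no call by edgeR with all 4 libraries. Of the 8 tested, 5 were higher at an edgeR p under 0.05 before adjustment, as were 8.36% of all genes. DESeq2 called 2 higher and limma-voom none. Adamts15 had 8.86 and 14.9 CPM in cKO and 4.86 and 3.47 CPM in control (log2 fold change 1.51 ± 0.30, edgeR adjusted p = 0.0745). The main aggrecanase genes Adamts5 and Adamts4 had log2 fold changes of 0.24 and 0.44 (adjusted p = 0.249 and 0.279). Without cKO replicate 1, 3 of the 8 were called higher. Of 6 genes of Gla proteins and vitamin K carboxylation, the modification that Ucma carries, edgeR, DESeq2 and limma-voom called none. Before adjustment, 1 was higher and 2 lower at an edgeR p under 0.05, beside 8.36% and 8.88% of all genes. Without cKO replicate 1, 1 was called higher.

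**Figure D5:**
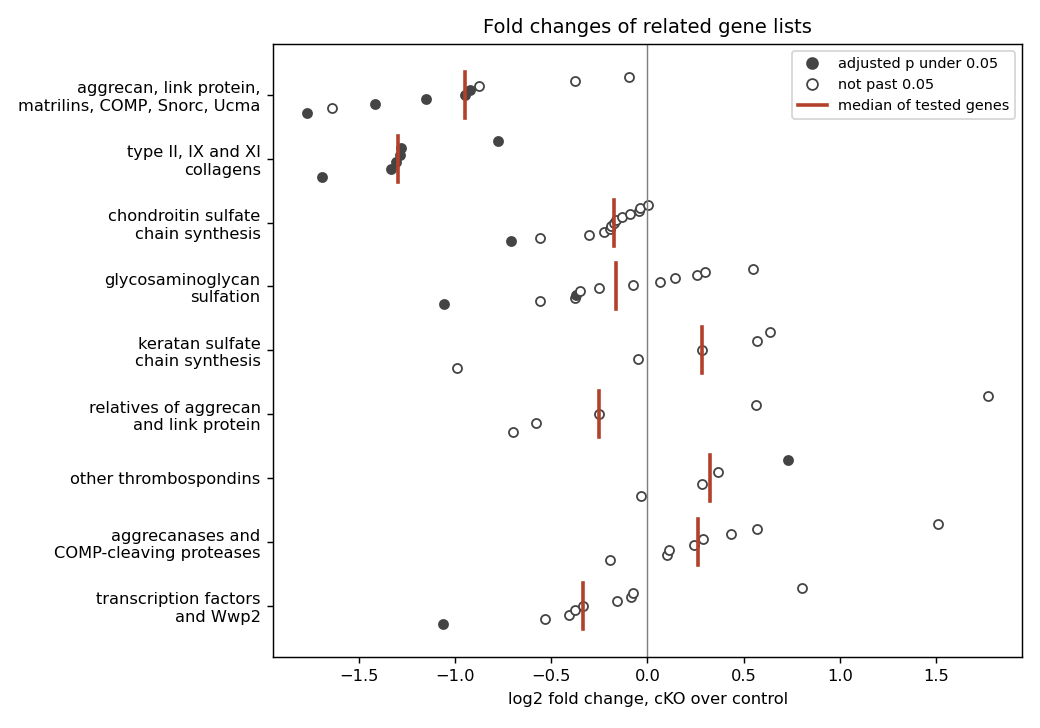
Log2 fold changes, cKO over control, of the tested genes in each list; each point is a gene, filled where its adjusted p was under 0.05, and red lines are list medians. The 9 genes and the 6 collagens lie below 0, while 7 of the 8 proteases lie above 0.

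The genes whose values over the 4 libraries lay closest to those of Acan, by Euclidean distance between centred log2 CPM values, were sought among 5753 genes whose mean log2 CPM reached 5. They were Col27a1, Ppp1r3b, Susd5, Papss2 and Adm2, at distances of 0.0270 to 0.101. Col27a1, a cartilage fibril collagen gene, had 283 and 212 CPM in cKO and 531 and 561 CPM in control. The 5 closest to Matn2 were Tgfbi, Usp36, Rab24, Mcm4 and Mmp16, at distances of 0.0259 to 0.0457. These are descriptions of 4 libraries, chosen by their values.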

How the data were processed

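RNA-seq was done on 4 libraries of poly(A) RNA from primary mouse chondrocytes. The authors deposited 1 table of unscaled whole-number counts by gene symbol. HISAT2 2.2.1 and StringTie 2.1.7, beside Trim Galore 0.6.7 and FastQC 0.11.9, and the build mm10 are named in the submitters' processing notes, without roles. The read counter, strand setting and gene models were not given in the sources used here, so reads where exons overlap another gene cannot be assigned. Such overlaps covered 1.12% of Matn2 exons and 2.88% of Matn4 exons, and the genes there (9430069I07Rik and Rbpjl) had at most 34 counts.

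Genes were filtered by filterByExpr (minimum count 10), scaled by TMM and tested with the edgeR 4.0.16 quasi-likelihood test in R 4.3.3, without covariates, over all 15522 genes. Each SE was taken as |log2 fold change| divided by the root of the F statistic. Alternatives used DESeq2 1.42.0 and limma-voom (limma 3.58.1). The fit was tested on simulated data in which all genes shared the same replicate spread, smaller than the common spread estimated here. That test does not measure how often the fit errs in these libraries. Depth limits low genes, and PCR copies cannot be told from separate molecules. Gene positions and exon lengths come from GENCODE M21 on mm10. The 9 genes, the lists and the rule for naming genes (the 9, the targeted gene and the sex check, list members past the threshold and up to 4 more a list by p-value, the 5 nearest patterns of Acan and of Matn2, and genes overlapping the 9) were chosen with earlier results of these data known. The CCAAT and GC boxes were added after the promoter windows had been read.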

Additional observations from a re-analysis of the deposited data

How the results depend on the processing

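All 9 genes stayed below 0 under each scaling, filter and test tried with 4 libraries, and Matn1 passed in every one of them and without each library. Calls over all genes were 491 higher and 604 lower with DESeq2, 106 and 227 with limma-voom, 128 and 243 with counts divided by 4, 116 and 123 with library sizes alone, and 105 and 202 with a mean CPM of at least 1, against 61 and 141 in the main test. DESeq2 called 8 of the 9 genes lower. Leaving out 1 library gave 1 to 312 genes higher and 4 to 470 lower over all genes, 1 to 7 of the 9 genes lower, a Matn2 log2 fold change of -0.23 to 0.023 and a change of the Matn1 to Acan ratio of -0.48 to 0.0052. With the replicate block, 3 genes were higher and 20 lower, and 1 of the 9 was lower. The labels do not say what a replicate number marks, and deviations of same-numbered libraries correlated at -0.12 over genes, so the pairing is not established. With numbers crossed, an alternative chosen after seeing the data, 223 genes were higher and 341 lower. The causes were not tested.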

Other observations

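Markers of other tissues gave no call by edgeR. The 6 macrophage markers summed to 21.2 and 22.4 CPM in cKO and 24.8 and 18.0 CPM in control, and Ptprc and Adgre1 were at 0 counts in 3 of the 4 libraries each. The 6 endothelial markers summed to at most 4.29 CPM in any library, with Emcn at 0 throughout. Skeletal muscle markers summed to 66.5 and 13.5 CPM in cKO and 4.48 and 31.0 CPM in control. Tendon markers summed to 997 and 849 CPM in cKO and 908 and 1047 CPM in control, nearly all of it Fmod, and osteoblast markers to 5531 and 6244 CPM in cKO and 6716 and 5464 CPM in control, nearly all of it Spp1, genes that chondrocytes also express. In these 5 lists 0 genes had an unadjusted edgeR p under 0.05, and DESeq2 and limma-voom called 0.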
